A study of Rattus norvegicus with 16 samples.

Results

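Livers of rats given 20 mg/kg xylazine were compared with livers of rats given 10 mg/kg, across all expressed genes. The comparison takes the 4 libraries labelled 20 mg/kg and the 4 labelled 10 mg/kg, 8 of the 16 libraries in the series. The other 8 libraries, from rats given saline or 40 mg/kg, enter only where the step between 10 and 20 mg/kg is set beside its neighbours. In the study, 40 male SD rats weighing 160 to 200 g were kept for 7 days and then injected intraperitoneally over 28 days with saline or with xylazine at 10, 20 or 40 mg/kg. In each group, 4 livers were taken and frozen, and messenger RNA from 50 mg of tissue was sequenced. All animals of both groups compared were xylazine-treated males, and the labels name dose as their only difference. Their ages and the time between injection and sampling are not given in the sources used here.

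Xylazine is a sedative used in animals that activates alpha-2 adrenergic receptors. In the liver, adrenergic signals, insulin and glucagon act on the balance of glucose release, fatty acid synthesis and fatty acid oxidation. Fatty acids are built in the cytosol from acetyl-CoA with NADPH as the reductant, and SREBP-1, the product of Srebf1, is known to activate the genes of that route.

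The libraries held 16511300 to 16942600 counts at 20 mg/kg and 16236200 to 16828800 counts at 10 mg/kg. All 16 hepatocyte markers, which define the labelled tissue, were present in each of the 8 libraries. Adra2a, which encodes an alpha-2 adrenergic receptor, had 0 to 3 counts, with 0 in 6 of the 8 libraries, and was not tested. Adra2b, the gene of another alpha-2 receptor, passed the filter, with a log2 fold change of -0.28 in the fit of all 16 libraries. Replicate 3 at 20 mg/kg and replicate 1 at 10 mg/kg stood apart on the first 3 principal components, which carried 21.7%, 17.0% and 15.8% of the variance. Macrophage genes, on their list's average, and MHC class II genes were high in replicate 3 at 20 mg/kg. Immediate early and mesothelial genes were low in replicate 1 at 10 mg/kg. Values without these libraries are given beside the list medians and genes that they move most. In bulk tissue, fewer cells of a type and less RNA per cell cannot be told apart.

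Genes with small p-values and higher values at 20 mg/kg included enzymes and regulators of fatty acid synthesis and of NADPH supply, Acly, Srebf1, Fasn, Me1, Thrsp and Elovl6, with log2 fold changes between 0.71 and 1.79. Those with lower values at 20 mg/kg included B3galt1, Slc13a5, Ablim3 and Zbtb16, with log2 fold changes between -0.89 and -2.99. None of the 12391 genes tested passed edgeR's quasi-likelihood test at a Benjamini-Hochberg adjusted p under 0.05, which is 0%. The smallest adjusted p was 0.0982, shared by 6 genes, of which Dusp3, Acly and Srebf1 were higher and B3galt1, Slc13a5 and Ablim3 lower. At an unadjusted p under 0.05, edgeR counted 928 genes (7.49%), 382 higher (3.08%) and 546 lower (4.41%). Scaling by total count in place of TMM turned this split to 527 higher and 330 lower, so the balance of directions depended on the scaling. DESeq2's Wald test called 70 of 12133 genes at an adjusted p under 0.05 (0.577%), 31 higher (0.256%) and 39 lower (0.321%), and limma-voom called 0. All 70 DESeq2 calls had an edgeR unadjusted p under 0.05. In 499 genes (4.03%) the libraries of both doses did not overlap, 221 of them higher at 20 mg/kg (1.78%) and 278 lower (2.24%). The typical gene differed little, since the central 95% of log2 fold changes ran from -0.63 to 0.53 around a median of 0.00. Among 9121 genes with a mean of at least 5 CPM (counts scaled by library size and TMM to a common depth, written CPM) in either group, 77 had an absolute log2 fold change of at least 1, 33 higher and 44 lower.

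**Figure D1:**
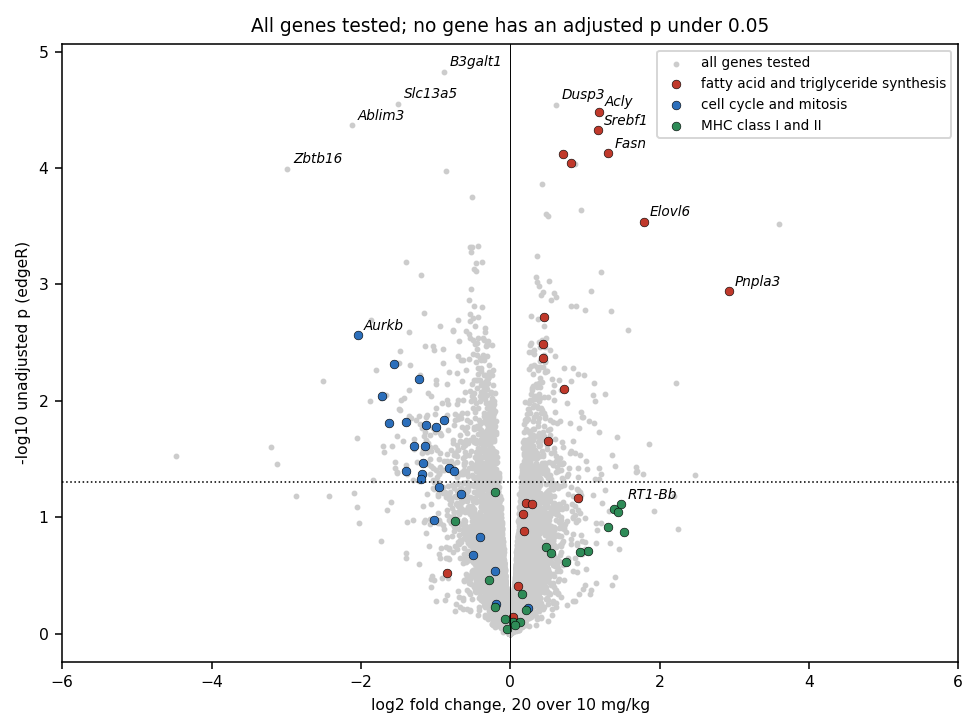
Each point is a gene, with the log2 fold change of 20 over 10 mg/kg on the horizontal axis and -log10 of edgeR's unadjusted p on the vertical axis; colours mark 3 gene lists and the dotted line an unadjusted p of 0.05. Most fatty acid and triglyceride synthesis genes lie on the right and most cell cycle genes on the left, while MHC genes scatter widely with weak evidence.

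Fatty acid and triglyceride synthesis had the most members with evidence of being higher among the 51 gene lists examined. Of its 20 genes, all tested, 19 had positive log2 fold changes, against 51.3% of all genes. In the higher direction, 12 had an edgeR unadjusted p under 0.05, against 3.08% of all genes, and in the lower direction none, against 4.41%. DESeq2 called 9 of the 20 higher, against 0.256% of all genes, and in 10 the 20 mg/kg livers were all above the 10 mg/kg livers, against 1.78%. The median log2 fold change of the list was 0.48, against 0.00 over all genes tested. The 4 libraries at 20 mg/kg lay 0.56 to 0.79 log2 units above the 10 mg/kg mean on the list's average, and the 10 mg/kg libraries lay between -0.14 and 0.12. Without replicate 3 at 20 mg/kg and replicate 1 at 10 mg/kg, 12 members still had an unadjusted p under 0.05 in the higher direction, and the median was 0.44.

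Srebf1, the transcription factor gene of the route, had 452, 451, 489.9 and 304 CPM at 20 mg/kg, against 157, 169.8, 191 and 234 CPM at 10 mg/kg. Every 20 mg/kg liver exceeded every 10 mg/kg liver, replicate 4 at 20 mg/kg by the least, and the log2 fold change was 1.17 (SE 0.169, edgeR adjusted p = 0.0982, DESeq2 adjusted p = 6.59e-08). Mlxipl, which encodes the carbohydrate-responsive factor ChREBP, had 258, 294, 299.5 and 317 CPM at 20 mg/kg, against 257, 234, 259.8 and 287 CPM at 10 mg/kg. Its groups overlapped and its log2 fold change was 0.17 (edgeR adjusted p = 0.7304).

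Acly, ATP citrate lyase, which cuts cytosolic citrate into the acetyl-CoA used for fatty acids, had 418, 582, 781 and 588 CPM at 20 mg/kg, against 255, 233, 274 and 275 CPM at 10 mg/kg. The 10 mg/kg livers were close together and the 20 mg/kg livers spread above them without overlap, giving a log2 fold change of 1.19 (SE 0.166, edgeR adjusted p = 0.0982, DESeq2 adjusted p = 2.27e-08). The acetyl-CoA carboxylases make malonyl-CoA. Acaca, the cytosolic form, had 130.4, 143, 128 and 156 CPM at 20 mg/kg, against 90.2, 102, 127 and 92.5 CPM at 10 mg/kg, with the lowest 20 mg/kg liver and the highest 10 mg/kg liver almost level (log2 fold change 0.44, edgeR adjusted p = 0.464). Acacb, the form at the mitochondrial surface, had 108, 129, 151 and 111 CPM at 20 mg/kg, against 84.9, 94.9, 89.9 and 94.2 CPM at 10 mg/kg, a difference that DESeq2 called (log2 fold change 0.45, DESeq2 adjusted p = 0.0429, edgeR adjusted p = 0.424). Fasn, fatty acid synthase, had 696, 670.2, 782 and 557 CPM at 20 mg/kg, against 214, 236, 395 and 242 CPM at 10 mg/kg. Replicate 3 was the highest liver at 10 mg/kg yet lay below all 20 mg/kg livers, and the log2 fold change was 1.32 (SE 0.198, edgeR adjusted p = 0.1104, DESeq2 adjusted p = 5.88e-08). Without that 10 mg/kg library, Fasn was the only gene to pass edgeR's test, with an adjusted p of 0.0111 and a log2 fold change of 1.55.

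Elongation and desaturation genes were less uniform. Elovl6, which elongates palmitate, had 22.7, 28.9, 33.98 and 12.8 CPM at 20 mg/kg, against 7.23, 5.16, 7.97 and 8.05 CPM at 10 mg/kg. The 10 mg/kg livers were all low, and the 20 mg/kg livers lay above them with replicate 4 the lowest (log2 fold change 1.79, SE 0.298, edgeR adjusted p = 0.195, DESeq2 adjusted p = 4.10e-07). Scd, the stearoyl-CoA desaturase, had 4764, 5194, 2284 and 5084 CPM at 20 mg/kg, against 941, 2080.1, 3848 and 2379 CPM at 10 mg/kg. Replicate 3 at 20 mg/kg lay within the 10 mg/kg range, and the log2 fold change of 0.91 had an edgeR adjusted p of 0.692. Fads2, a desaturase of polyunsaturated fatty acids, had 1236, 1146, 929.9 and 1090.2 CPM at 20 mg/kg, against 745, 925, 782 and 803 CPM at 10 mg/kg, without overlap, and DESeq2 called it (log2 fold change 0.44, DESeq2 adjusted p = 0.0252). Elovl5 and Fads1, which act in the same polyunsaturated route, had log2 fold changes of 0.19 and 0.21 with overlapping groups.

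Pnpla3, a lipid droplet protein with lipase and acyltransferase activities, had the largest log2 fold change in the list, with 117, 187, 341 and 67.2 CPM at 20 mg/kg, against 15.3, 24.2, 16.9 and 36.9 CPM at 10 mg/kg. All 20 mg/kg livers were above all 10 mg/kg livers but ranged widely among themselves, so a log2 fold change of 2.93 (SE 0.564) reached an edgeR adjusted p of only 0.367, while DESeq2's was 0.000222. Thrsp, the Spot 14 gene known to respond to thyroid hormone and carbohydrate in lipogenic tissue, had 937, 936, 1015 and 938 CPM at 20 mg/kg, against 558, 405, 589 and 619.7 CPM at 10 mg/kg. The doses were well separated, with a log2 fold change of 0.82 (SE 0.1296, edgeR adjusted p = 0.1104, DESeq2 adjusted p = 2.03e-06). In triglyceride assembly, Gpam, which adds the first acyl chain to glycerol phosphate, had 310.0, 285, 355 and 189 CPM at 20 mg/kg, against 181, 145, 141 and 225 CPM at 10 mg/kg, and its groups overlapped through replicate 4 of each (log2 fold change 0.72). Lpin1, the phosphatidate phosphatase lipin, was the only member with a negative log2 fold change, -0.85. Its libraries held 67.8, 103, 139 and 442 CPM at 20 mg/kg, against 221, 502, 534 and 97.1 CPM at 10 mg/kg, and the wide overlap left an edgeR adjusted p of 0.859. Dgat1 and Dgat2, which complete triglycerides, had log2 fold changes of 0.04 and 0.29, with overlapping groups.

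**Figure D2:**
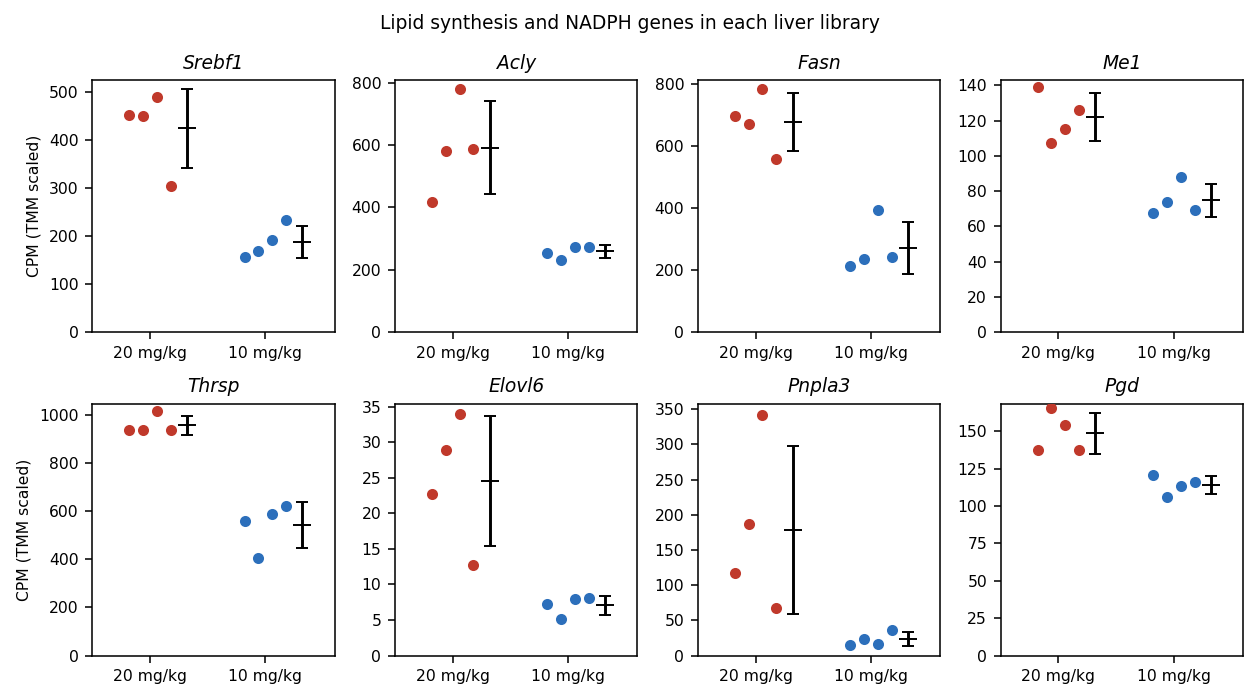
CPM of 8 genes of fatty acid synthesis and NADPH supply, with 1 point per library, 20 mg/kg at left and 10 mg/kg at right; bars are the mean and SD of 4 libraries. All 8 genes separate the doses completely, and Elovl6 and Pnpla3 spread most at 20 mg/kg.

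To show the DNA next to the start of genes that were higher together, the 250 bases before the RefSeq transcription start are printed for the 5 of these genes with an entry, from RefSeq on build GRCr8. Capitals mark exact matches to a CCAAT box (CCAAT, read ATTGG on the other strand) and to a GC box (GGGCGG, read CCGCCC on the other strand). No entry was used for Fasn or Elovl6.
Srebf1, chr10:45529165-45529414, minus strand: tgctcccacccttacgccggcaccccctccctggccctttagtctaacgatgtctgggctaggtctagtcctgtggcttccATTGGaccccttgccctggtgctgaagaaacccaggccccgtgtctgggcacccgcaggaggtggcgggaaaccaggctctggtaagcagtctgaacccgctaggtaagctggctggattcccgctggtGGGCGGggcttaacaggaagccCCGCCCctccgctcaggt
Acly, chr10:85963632-85963881, minus strand: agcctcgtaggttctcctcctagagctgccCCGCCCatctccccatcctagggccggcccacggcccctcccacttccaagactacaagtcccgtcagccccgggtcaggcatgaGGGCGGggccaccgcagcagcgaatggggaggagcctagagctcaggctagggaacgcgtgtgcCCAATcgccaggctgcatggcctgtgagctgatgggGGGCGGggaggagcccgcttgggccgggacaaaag
Thrsp, chr1:161138965-161139214, minus strand: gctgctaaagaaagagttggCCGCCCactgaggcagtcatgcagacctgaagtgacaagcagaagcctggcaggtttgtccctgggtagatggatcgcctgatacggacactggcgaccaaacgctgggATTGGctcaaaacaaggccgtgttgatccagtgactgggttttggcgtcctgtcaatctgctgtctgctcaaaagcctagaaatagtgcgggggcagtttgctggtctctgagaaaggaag
Me1, chr8:96540245-96540494, minus strand: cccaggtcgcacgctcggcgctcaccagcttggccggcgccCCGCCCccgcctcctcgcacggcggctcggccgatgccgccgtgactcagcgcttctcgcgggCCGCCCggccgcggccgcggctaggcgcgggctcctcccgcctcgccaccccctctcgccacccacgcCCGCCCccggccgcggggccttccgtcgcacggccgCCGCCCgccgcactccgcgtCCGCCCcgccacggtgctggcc
Pnpla3, chr7:117173278-117173527, plus strand: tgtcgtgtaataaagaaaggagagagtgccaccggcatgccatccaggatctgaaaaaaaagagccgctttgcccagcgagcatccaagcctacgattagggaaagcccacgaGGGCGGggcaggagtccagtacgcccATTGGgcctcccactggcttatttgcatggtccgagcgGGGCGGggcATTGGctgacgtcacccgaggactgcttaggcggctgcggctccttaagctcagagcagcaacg

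Both strands were searched, and no match in these 5 promoters overlaps another. All 5 promoters held a GC box, which 57% of the 10166 promoters of tested genes also held, and 4 of 5 held a CCAAT box, against 36.3%. Among the 15 promoters found for the fatty acid and triglyceride list, 11 held a CCAAT box and 8 a GC box. The E box CACGTG was in 1 of these 15 promoters and in none of the 5 shown, against 8.14% of all promoters. The letters TCACCCCAC of the sterol response element core were in none of the 15 and in 0.393% of all. These are matches of letters in a short window and say nothing of binding.

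NADPH for fatty acid synthesis comes from malic enzyme and the pentose phosphate route. Me1, cytosolic malic enzyme, had 139, 107, 116 and 126 CPM at 20 mg/kg, against 67.5, 73.96, 88.2 and 69.3 CPM at 10 mg/kg. All 20 mg/kg livers were higher, with a log2 fold change of 0.71 (SE 0.1099, edgeR adjusted p = 0.1104, DESeq2 adjusted p = 7.31e-06). Pgd, an oxidative enzyme of the pentose phosphate route, had 137, 165, 154 and 138 CPM at 20 mg/kg, against 121, 106, 114 and 116 CPM at 10 mg/kg, and DESeq2 called it (log2 fold change 0.38, DESeq2 adjusted p = 0.0151). Tkt, transketolase of the non-oxidative arm, had 276, 298, 245 and 282 CPM at 20 mg/kg, against 210.1, 216, 234 and 243 CPM at 10 mg/kg, without overlap (log2 fold change 0.29, edgeR adjusted p = 0.492). These enzymes were listed with targets of the oxidative stress factor NRF2, and the median of the 19 list genes tested was -0.00. Of the 19, 3 were higher and 1 lower at an unadjusted p under 0.05, against 3.08% and 4.41% of all genes. NRF2 targets outside the pentose route did not share the direction: Gclm, Txnrd1 and Srxn1 had log2 fold changes of -0.01, -0.15 and 0.01, and the antioxidant list had a median of 0.01 over 16 genes. Sod1, cytosolic superoxide dismutase, was an exception in the lower direction, 491, 400.0, 369.7 and 447 CPM at 20 mg/kg, against 494, 561, 535 and 596 CPM at 10 mg/kg (log2 fold change -0.36, edgeR adjusted p = 0.492).

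The other lipid lists had medians closer to that of all genes. In cholesterol synthesis and uptake, 22 of 24 genes had positive log2 fold changes, against 51.3% of all genes, and the median was 0.18. At an unadjusted p under 0.05, 5 were higher, against 3.08% of all genes, and none was lower, against 4.41%. Without replicate 3 at 20 mg/kg the median was 0.09 and 4 genes reached that p. Srebf2, the transcription factor gene of the sterol route, had 50.5, 50.5, 60.7 and 51.7 CPM at 20 mg/kg, against 43.6, 41.3, 43.4 and 36.4 CPM at 10 mg/kg, without overlap (log2 fold change 0.37, edgeR adjusted p = 0.424). Nsdhl, a sterol dehydrogenase, was the list's DESeq2 call, with 484, 505, 551 and 513 CPM at 20 mg/kg, against 447, 384, 389 and 423 CPM at 10 mg/kg (log2 fold change 0.32, DESeq2 adjusted p = 0.0224). Of 10 LXR and sterol export targets, a list that also holds Srebf1, 7 had positive log2 fold changes, against 51.3% of all genes. In this list, 2 were higher and 1 lower at an unadjusted p under 0.05, against 3.08% and 4.41% of all genes. Its median was 0.13. That median was 0.04 without replicate 3 at 20 mg/kg, and without it no member was lower at that p. The sterol exporters Abcg5 and Abcg8 had negative log2 fold changes of -1.84 and -2.05. Abcg5 had 7.11, 1.28, 1.85 and 1.704 CPM at 20 mg/kg, against 14.96, 12.3, 13.8 and 1.58 CPM at 10 mg/kg, and replicate 4 at 10 mg/kg was as low as the lower 20 mg/kg livers. Of 13 lipid droplet genes, Plin2, the main droplet coat protein of hepatocytes, had 281, 285, 263 and 219 CPM at 20 mg/kg, against 195, 119.8, 202 and 175 CPM at 10 mg/kg, without overlap. Cidea, a droplet fusion protein, had 4.78, 5.55, 3.16 and 5.17 CPM at 20 mg/kg, against 9.85, 7.13, 6.74 and 8.11 CPM at 10 mg/kg, also without overlap but in the opposite direction. Their log2 fold changes were 0.60 and -0.77 (edgeR adjusted p = 0.4602 and 0.451). The fatty acid oxidation and ketogenesis list had a median of -0.02 over 29 genes. At an unadjusted p under 0.05, 0 were higher and 2 lower, against 3.08% and 4.41% of all genes. Those 2 were Ppargc1a, a coactivator of oxidative genes, with 2.87, 2.75, 4.57 and 2.62 CPM at 20 mg/kg, against 4.01, 10.6, 5.21 and 4.62 CPM at 10 mg/kg, and Ppara, the nuclear receptor that drives oxidation, with 84.3, 96.2, 92.1 and 86.8 CPM at 20 mg/kg, against 136, 105, 97.3 and 93.5 CPM at 10 mg/kg; both had groups that overlapped.

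Genes of glucose release had both signs. Pck1, the cytosolic enzyme that turns oxaloacetate to phosphoenolpyruvate, had 1548, 2175, 1575 and 2281 CPM at 20 mg/kg, against 3175, 2753, 2684 and 2779.9 CPM at 10 mg/kg. Its 20 mg/kg livers were all lower, and DESeq2 called it (log2 fold change -0.59, DESeq2 adjusted p = 0.0225, edgeR adjusted p = 0.451). G6pc1, the glucose-6-phosphatase that completes glucose release, had 893, 1803, 771 and 1660.4 CPM at 20 mg/kg, against 508, 452, 587 and 807 CPM at 10 mg/kg. DESeq2 called it in the opposite direction, with 1 of 4 livers at 20 mg/kg below the highest 10 mg/kg liver (log2 fold change 1.12, DESeq2 adjusted p = 0.0221, edgeR adjusted p = 0.479). Pklr, liver pyruvate kinase of glycolysis, had 427, 469, 349 and 478 CPM at 20 mg/kg, against 249, 279.7, 348 and 349.7 CPM at 10 mg/kg (log2 fold change 0.49, edgeR adjusted p = 0.46997). Of all 21 genes of gluconeogenesis and glucose handling, 2 were higher and 1 lower at an unadjusted p under 0.05. The shares over all genes were 3.08% and 4.41%, and the list's median was 0.03. Among insulin-linked genes, the adaptor gene Irs3, named after its values were seen, had 19.9, 20.6, 13.9 and 7.91 CPM at 20 mg/kg, against 6.02, 6.76, 4.51 and 7.26 CPM at 10 mg/kg, and DESeq2 called it (log2 fold change 1.35, DESeq2 adjusted p = 0.00294). Igfbp1, a binding protein gene known to be repressed by insulin, ranged over 31.1 to 319 CPM at 20 mg/kg and 42.6 to 114 CPM at 10 mg/kg, and its log2 fold change of 1.16 had an edgeR adjusted p of 0.7698.

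Outside metabolism, Dusp3, a dual-specificity phosphatase, had 59.5, 55.2, 65.1 and 58.2 CPM at 20 mg/kg, against 43.4, 35.2, 38.1 and 38.9 CPM at 10 mg/kg. The doses were separate, with a log2 fold change of 0.61 (SE 0.0848, edgeR adjusted p = 0.0982, DESeq2 adjusted p = 9.29e-07). Without replicate 1 at 10 mg/kg it passed edgeR's test, with an adjusted p of 0.0290. Other leading genes higher at 20 mg/kg were Lrrc8b, a subunit of volume-regulated anion channels, Fam20c, a kinase of secreted proteins, Ctif, a translation initiation factor, and Cacna2d4, an accessory subunit of calcium channels. Their log2 fold changes were 0.42, 0.48, 0.50 and 0.36, and the groups of each did not overlap. The DESeq2 call with the largest positive log2 fold change was Sult4a1, a member of the sulfotransferase family, with 2.93, 3.05, 8.496 and 1.58 CPM at 20 mg/kg, against 0.122, 0.246, 0.352 and 0.594 CPM at 10 mg/kg. Replicate 3 at 20 mg/kg was far above the others, and all 4 exceeded every 10 mg/kg liver (log2 fold change 3.60, SE 0.635, edgeR adjusted p = 0.195, DESeq2 adjusted p = 2.99e-06).

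Zbtb16, the transcription factor PLZF, known as a glucocorticoid-induced gene, had the most negative log2 fold change of the leading genes, with 7.71, 6.28, 5.39 and 13.998 CPM at 20 mg/kg, against 39.5, 96.6, 76.9 and 51.3 CPM at 10 mg/kg. The highest 20 mg/kg liver lay well under the lowest 10 mg/kg liver, with a log2 fold change of -2.99 (SE 0.402, edgeR adjusted p = 0.1104, DESeq2 adjusted p = 2.02e-15). Slc13a5, the plasma membrane citrate transporter, had 5.62, 3.66, 3.104 and 5.78 CPM at 20 mg/kg, against 11.6, 14.6, 14.1 and 10.95 CPM at 10 mg/kg, without overlap (log2 fold change -1.499, SE 0.205, edgeR adjusted p = 0.0982). Citrate is also the substrate of Acly, which had a positive log2 fold change. Ablim3, an actin-binding protein gene, had 1.79, 1.28, 2.995 and 3.53 CPM at 20 mg/kg, against 11.6, 9.71, 12.8 and 7.65 CPM at 10 mg/kg (log2 fold change -2.12, SE 0.295, edgeR adjusted p = 0.0982). B3galt1, a galactosyltransferase gene, had 33.4, 37.95, 31.5 and 31.2 CPM at 20 mg/kg, against 53.6, 71.8, 54.95 and 67.7 CPM at 10 mg/kg (log2 fold change -0.89, SE 0.114, edgeR adjusted p = 0.0982). Neither gene's groups overlapped, and both had adjusted p-values as small as any in the comparison. Zbtb16, Slc13a5 and Ablim3 passed edgeR's test when replicate 4 at 20 mg/kg was left out, with adjusted p-values of 0.0397, 0.0318 and 0.0318. The other 8 leading lower genes had smaller differences, with log2 fold changes of -0.86 for Baiap2l1, an actin and membrane adaptor, -0.51 for Pnpla7, a lysophospholipase, -0.44 for Ell2, a transcription elongation factor, -0.54 for Mtss1, an actin and membrane protein, and -0.52 for Smg8, a factor of nonsense-mediated decay. Tacc2, a centrosomal protein gene, Nr1i2, which encodes the xenobiotic receptor PXR, and Mbnl2, a splicing factor gene, had -0.53, -0.38 and -0.46. The 24 leading genes were ranked by p, so that all 24 had groups without overlap is a description of them and not further evidence.

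Among genes of known glucocorticoid response, 6 of 15 were lower at an unadjusted p under 0.05, against 4.41% of all genes, and 2 higher, against 3.08%, and the median was -0.43. With replicate 3 at 20 mg/kg and replicate 1 at 10 mg/kg left out the median was -0.17, with 5 lower and 1 higher. Members besides Zbtb16 had both signs. The chaperone gene Fkbp5, the metal-binding metallothionein Mt1 and Lcn2, a secreted iron-siderophore carrier, had log2 fold changes of -0.49, -1.55 and -1.06. Tat, the tyrosine aminotransferase long used as a glucocorticoid marker in liver, had 569.9, 876, 1187 and 723 CPM at 20 mg/kg, against 767, 366, 359 and 355 CPM at 10 mg/kg. At 10 mg/kg, replicate 1 was high and the rest were low and alike, and the log2 fold change was 0.86 (edgeR adjusted p = 0.601). Tsc22d3, the glucocorticoid-induced leucine zipper, had a log2 fold change of 0.29 (SE 0.461).

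Most cell cycle and mitosis genes, all but a few expressed at a low level, had lower values at 20 mg/kg. Of 25 genes tested, 24 had negative log2 fold changes, 17 were lower at an unadjusted p under 0.05, against 4.41% of all genes, and none higher. In 6 all 20 mg/kg livers lay under all 10 mg/kg livers, against 2.24% of all genes, and the median was -1.12. The libraries were not cleanly separated, however: on the list's average the 20 mg/kg livers lay at -0.83, -1.20, -0.45 and -0.93 log2 units from the 10 mg/kg mean, and the 10 mg/kg livers at -0.56, 0.07, 0.91 and -0.42. Replicate 3 at 10 mg/kg was the highest of all. Without it, 24 genes had negative log2 fold changes and the median was -0.56. In that setting 7 were lower at that p, against 438 of the 12493 genes tested. Without replicate 3 at 20 mg/kg and replicate 1 at 10 mg/kg, the median was -1.54. There 20 were lower at that p, against 625 of the 12365 genes tested.

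DESeq2 called 2 of the 25 cell cycle and mitosis genes lower, against 0.321% of all genes. Aurkb, the kinase of the chromosomal passenger complex, had 0.299, 0.366, 1.14 and 0.609 CPM at 20 mg/kg, against 1.58, 1.78, 4.86 and 1.85 CPM at 10 mg/kg, without overlap (log2 fold change -2.03, SE 0.509, DESeq2 adjusted p = 0.0294, edgeR adjusted p = 0.451). Top2a, topoisomerase II alpha, had 2.51, 1.65, 4.96 and 3.04 CPM at 20 mg/kg, against 5.84, 7.75, 20.2 and 6.33 CPM at 10 mg/kg, also without overlap (log2 fold change -1.71, DESeq2 adjusted p = 0.0247). Mki67, the proliferation marker, had 4.24, 3.78, 8.39 and 3.59 CPM at 20 mg/kg, against 5.17, 10.3, 16.8 and 6.73 CPM at 10 mg/kg, with overlapping groups (log2 fold change -0.96, edgeR adjusted p = 0.676). Rrm2, the regulated subunit of ribonucleotide reductase, stood in the replication list and had 5.86, 3.23, 4.74 and 5.54 CPM at 20 mg/kg, against 8.21, 15.5, 33.3 and 10.2 CPM at 10 mg/kg. It was lower in all 20 mg/kg livers, and DESeq2 called it (log2 fold change -1.79, DESeq2 adjusted p = 0.00361). The replication list, Rrm2 included, had a median of -0.17 over 15 genes. Of these, 3 were lower at an unadjusted p under 0.05, against 4.41% of all genes. Without replicate 3 at 10 mg/kg the median was -0.05 with 1 lower, without replicate 1 at 10 mg/kg it was -0.31, and with that library and replicate 3 at 20 mg/kg left out it was -0.39 with 5 lower. The replication clamp Pcna had a log2 fold change of -0.07, and the G1 cyclins Ccnd1 and Ccne1 had -0.19 and 0.24.

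**Figure D3:**
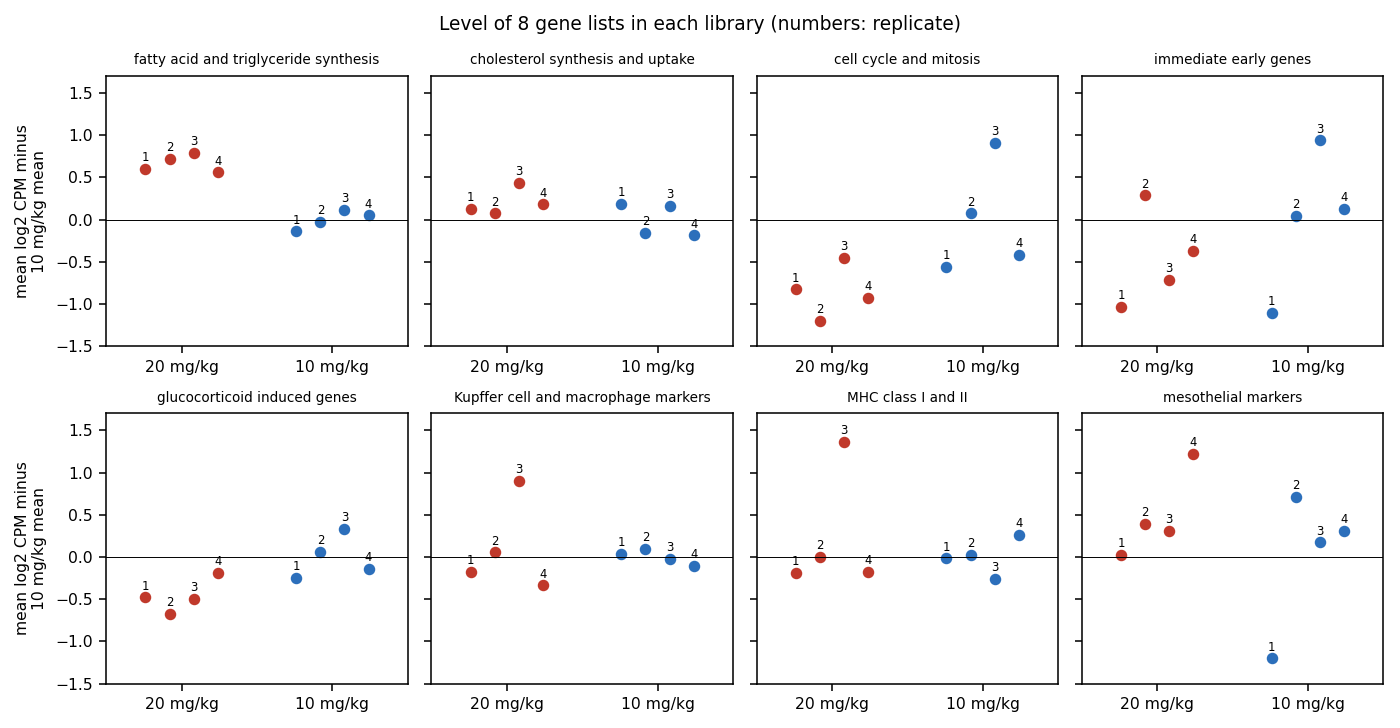
Mean log2 CPM of each list's tested genes in every library, relative to the 10 mg/kg mean, with 20 mg/kg at left, 10 mg/kg at right and the replicate number above each point. Fatty acid and triglyceride synthesis is the list shown whose groups do not overlap, and single libraries set the extremes of the MHC, macrophage, mesothelial and immediate early lists.

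Immediate early genes answer within minutes to growth factors and stress. Of 16 tested, 13 had negative log2 fold changes, while 51.3% of all genes had positive ones. At an unadjusted p under 0.05, 4 were lower, against 4.41% of all genes, and 0 higher, against 3.08%, and the list's median was -0.45. That median was -0.08 without replicate 3 at 10 mg/kg, the library in which these genes were highest. It was -0.67 without replicate 1 at 10 mg/kg, and -0.65 with that library and replicate 3 at 20 mg/kg left out. Dusp1, a phosphatase gene of this class, was the DESeq2 call, with 25.9, 26.7, 12.4 and 26.8 CPM at 20 mg/kg, against 24.2, 53.8, 79.9 and 54.6 CPM at 10 mg/kg. Replicate 1 at 10 mg/kg lay among the 20 mg/kg livers, and the log2 fold change was -1.21 (DESeq2 adjusted p = 0.04997, edgeR adjusted p = 0.546). The same library was low for Cish and Socs2, feedback inhibitors of cytokine and growth hormone signalling. Cish had 12.7, 7.44, 10.3 and 16.6 CPM at 20 mg/kg, against 1.28, 69.6, 78.9 and 50.3 CPM at 10 mg/kg, and Socs2 had 24.5, 14.6, 12.8 and 82.5 CPM at 20 mg/kg, against 3.95, 157, 195 and 189 CPM at 10 mg/kg. In both, the remaining 10 mg/kg livers exceeded all 20 mg/kg livers and replicate 1 lay under them all. Left out, that library brought 10 genes past edgeR's adjusted p of 0.05, 9 of them lower, among them Foxa2 and Gata4, liver transcription factor genes, and Dusp6, an ERK phosphatase gene. Foxa2 had 23.7, 23.3, 16.8 and 22.1 CPM at 20 mg/kg, against 13.4, 53.4, 47.7 and 54.4 CPM at 10 mg/kg. Its log2 fold change was -0.98 with all libraries and -1.27 without replicate 1 at 10 mg/kg (edgeR adjusted p = 0.0130). The growth hormone list itself had a median of -0.00 over 18 genes, and Igf1, the main endocrine product of growth hormone in liver, had a log2 fold change of -0.06.

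Of 24 xenobiotic metabolism genes known to be induced through CAR and PXR, 4 had positive log2 fold changes, against 51.3% of all genes, and the median was -0.23. At an unadjusted p under 0.05, 2 were lower, against 4.41% of all genes, and 0 higher. With replicate 3 at 20 mg/kg and replicate 1 at 10 mg/kg left out, 8 were positive, 1 was lower and 1 higher at that p, and the median was -0.07. Nr1i2, a member, had 73.3, 72.6, 66.2 and 74.01 CPM at 20 mg/kg, against 103, 91.4, 84.5 and 94.3 CPM at 10 mg/kg, without overlap. Among 6 AHR targets tested, Cyp1a2, a drug-metabolizing P450, had 725, 831, 934 and 819.7 CPM at 20 mg/kg, against 2437, 1118, 1361 and 1255 CPM at 10 mg/kg. All 20 mg/kg livers were lower and DESeq2 called it (log2 fold change -0.90, DESeq2 adjusted p = 0.0225, edgeR adjusted p = 0.454). Replicate 1 at 10 mg/kg was far above the others, and without it the log2 fold change was -0.59. Cyp1a1, another P450 induced through the same receptor, had 2.27, 0.488, 1.09 and 1.58 CPM at 20 mg/kg, against 13.1, 2.77, 12.2 and 2.84 CPM at 10 mg/kg, again without overlap (log2 fold change -2.51, DESeq2 adjusted p = 0.00609). In bile acid synthesis, Cyp7a1, the rate-limiting enzyme, had 161, 330.5, 447 and 248 CPM at 20 mg/kg, against 214, 64.001, 79.1 and 164 CPM at 10 mg/kg. Its groups overlapped, with a log2 fold change of 1.18 (edgeR adjusted p = 0.641). Hsd3b7, of the same list, had -0.34 in the fit of all 16 libraries. Of the list's 21 genes tested, 16 had negative log2 fold changes, while 51.3% of all genes had positive ones. The list's median was -0.07. At an unadjusted p under 0.05, 1 was higher and 2 lower, against 3.08% and 4.41% of all genes. Retsat, the retinol saturase gene, had 347, 299.5, 79.5 and 316 CPM at 20 mg/kg, against 655, 356, 544 and 639 CPM at 10 mg/kg, without overlap, and replicate 3 at 20 mg/kg was far below the rest (log2 fold change -1.08, edgeR adjusted p = 0.644).

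Immune gene lists turned on a single library. The MHC list had a median of 0.21 over 21 genes and none at an unadjusted p under 0.05. Cd74, the invariant chain of MHC class II, had 74.96, 89.1, 598 and 109.6 CPM at 20 mg/kg, against 67.5, 97.6, 68.8 and 119 CPM at 10 mg/kg. Replicate 3 at 20 mg/kg was far above all others and the remaining libraries were alike. Without it the list's median was -0.15. On their list's average, Kupffer cell and macrophage markers were also highest in that library. Their median was 0.09 over 15 genes and -0.21 without that library. Of the 15, 1 was higher and 1 lower at an unadjusted p under 0.05, against 3.08% and 4.41% of all genes. Cd163 was not raised in that library. In the fit of all 16 libraries it had 34.4, 35.8, 34.2 and 35.3 CPM at 20 mg/kg, against 46.0, 47.3, 45.6 and 32.7 CPM at 10 mg/kg (log2 fold change -0.30). Marco, a macrophage scavenger receptor, had 29.8, 49.1, 139.7 and 27.6 CPM at 20 mg/kg, against 45.1, 32.9, 54.5 and 45.8 CPM at 10 mg/kg. The 15 markers summed to 573 to 1275 CPM at 20 mg/kg and 642 to 801 CPM at 10 mg/kg, and each was above 0 in all 8 libraries. Their part in other differences was not tested. Of 30 interferon-induced genes, 21 had negative log2 fold changes, while 51.3% of all genes had positive ones, and the median was -0.15. With an unadjusted p under 0.05, 4 were lower, against 4.41% of all genes, and 0 higher, against 3.08%. Without replicate 3 at 20 mg/kg, 28 of 30 were negative and the median was -0.42. In that setting 13 of them were lower at that p, against 521 of the 12458 genes tested. Isg15, a ubiquitin-like interferon product, had 2.27, 3.11, 5.34 and 2.86 CPM at 20 mg/kg, against 5.71, 6.21, 6.09 and 6.14 CPM at 10 mg/kg, without overlap (log2 fold change -0.82, edgeR adjusted p = 0.46997). Acute phase proteins, secreted by hepatocytes in inflammation, had 19 of 24 negative log2 fold changes and a median of -0.12. Of the 19, 4 had an unadjusted p under 0.05, and 4.41% of all genes were lower at that p.

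Markers of other cell types differed by list. Of 10 neutrophil markers only 2 were tested, S100a9, a calcium-binding protein of neutrophil granulocytes, with a log2 fold change of -0.71, and Csf3r, the receptor of granulocyte colony-stimulating factor, with -0.49 (edgeR adjusted p = 0.657 and 0.852). Csf3r was at -0.12 without replicate 3 at 10 mg/kg. Erythroid markers had a median of -0.30 over 7 genes, and T, NK and B cell markers -0.07 over 7, with 0 genes of either list at an unadjusted p under 0.05. The erythroid median was -0.06 without replicate 3 at 20 mg/kg, and the T, NK and B cell median turned to 0.31 without replicate 1 at 10 mg/kg. No adipocyte or muscle marker passed the filter. Mesothelial cells cover the liver surface. Their marker list also holds Krt8, Krt18 and Dpt, not particular to them, and Krt19, which is on the cholangiocyte list too. Its median was 0.44 over 11 genes, and 0.08 to 0.56 over 11 other scalings and sets of libraries. On the list's average, replicate 4 at 20 mg/kg lay 1.22 log2 units above the 10 mg/kg mean. The other 20 mg/kg livers lay 0.02 to 0.40 above it. The median was 0.22 without replicate 1 at 10 mg/kg. In that library Msln was 0.243 CPM, against 3.23 to 5.47 CPM in the other 10 mg/kg livers. Sinusoidal endothelial markers were positive in 14 of 15, against 51.3% of all genes, with a median of 0.12. Egfl7, an endothelial secreted factor, had 7.83, 8.604, 6.75 and 8.46 CPM at 20 mg/kg, against 4.62, 4.73, 5.21 and 6.201 CPM at 10 mg/kg, without overlap (log2 fold change 0.61, edgeR adjusted p = 0.379). Hepatocyte markers had a median of -0.07 with 1 of 16 at an unadjusted p under 0.05, against 7.49% of all genes. Alb had a log2 fold change of -0.06. The insulin signalling list had a median of -0.23 over 15 genes, which was -0.15 without replicate 3 at 20 mg/kg. Of the 15, 1 was lower at an unadjusted p under 0.05, against 4.41% of all genes. Inflammatory cytokines and NF-kB targets had a median of 0.19 over 12 genes, which turned to -0.10 without replicate 3 at 20 mg/kg. Of the 12, 1 was higher and 2 lower at that p, against 3.08% and 4.41% of all genes. Many other lists lay close to the median of all genes: unfolded protein response -0.03, urea cycle and amino acid catabolism -0.05, proteasome 0.03, respiratory chain 0.04, cytosolic ribosomal proteins -0.02, coagulation and complement -0.03, extracellular matrix 0.06 and core clock -0.01. The p53 list had a median of -0.03, though its member Gadd45a, a DNA damage and stress gene, had 12.9, 6.53, 17.8 and 11.9 CPM at 20 mg/kg, against 12.4, 38.2, 44.3 and 42.9 CPM at 10 mg/kg and was called by DESeq2 (log2 fold change -1.49, DESeq2 adjusted p = 0.0224).

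**Figure D4:**
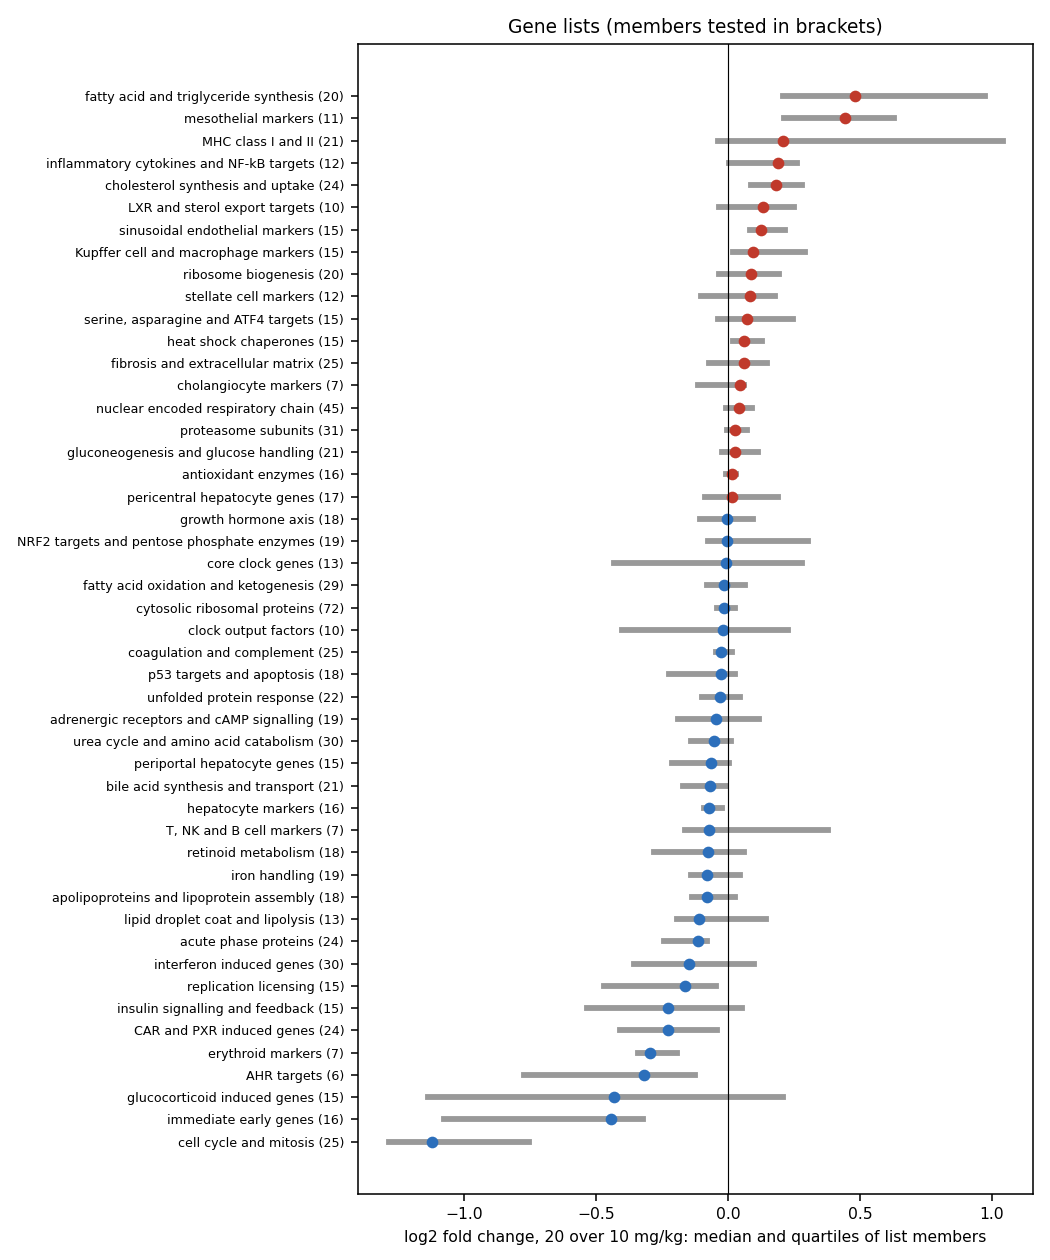
Median (point) and quartiles (bar) of the log2 fold changes of 20 over 10 mg/kg for each list with at least 5 tested members, ordered by median. Fatty acid and triglyceride synthesis is highest at 0.48 and cell cycle and mitosis lowest at -1.12, with most lists near 0.

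Whether the step between 10 and 20 mg/kg differed from the neighbouring steps was tested over all 16 libraries. The step from saline to 10 mg/kg shares the 10 mg/kg libraries with it, and the step to 40 mg/kg shares the 20 mg/kg libraries. No gene of 12732 passed edgeR's test of the difference from the lower step at an adjusted p under 0.05 (0%), with 639 at an unadjusted p under 0.05 (5.02%). Likewise none passed for the upper step (0%), with 547 (4.3%) unadjusted. DESeq2 called 3 genes for the lower step and 1 for the upper. Nothing was therefore shown to be particular to this dose step.

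The group means across saline, 10, 20 and 40 mg/kg are given as a description. Srebf1 averaged 183, 189.8, 428 and 462 CPM, Acly 342, 262, 598 and 614 CPM, and Fasn 289, 274, 683 and 771 CPM. In these genes the 10 mg/kg mean was near or below saline and the 40 mg/kg mean near the 20 mg/kg mean. Pnpla3 followed the same order, with 21.6, 23.6, 179.8 and 182 CPM. Me1 averaged 69.5, 75.5, 123 and 189.8 CPM, with its highest mean at 40 mg/kg. Zbtb16 averaged 37.4, 66.7, 8.43 and 5.15 CPM, with its highest mean at 10 mg/kg. Rrm2 averaged 6.602, 16.95, 4.89 and 3.13 CPM, and Mki67 5.22, 9.84, 5.05 and 3.44 CPM, again with the highest means at 10 mg/kg. The gene with the smallest p for a difference from the lower step was Dusp3, at 52.1, 39.3, 60.1 and 63.3 CPM, whose step exceeded the one below by 1.02 log2 units (SE 0.180, edgeR adjusted p = 0.237). The next by p were taken among genes averaging at least 5 CPM in a group and without placeholder symbols. They were Uxs1, a UDP-glucuronate decarboxylase gene, Zbtb16, the ubiquitin ligase gene G2e3 and Fam20c, at edgeR adjusted p-values of 0.648. For the upper step the smallest p belonged to Lrrc45, a centrosomal protein gene, at 14.04, 12.02, 15.8 and 11.9 CPM (difference 0.80, SE 0.158, edgeR adjusted p = 0.768). Cacna2d4, Tp53i13, Lrrc8b and Gigyf1 followed it under the same limits on CPM and symbols.

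**Figure D5:**
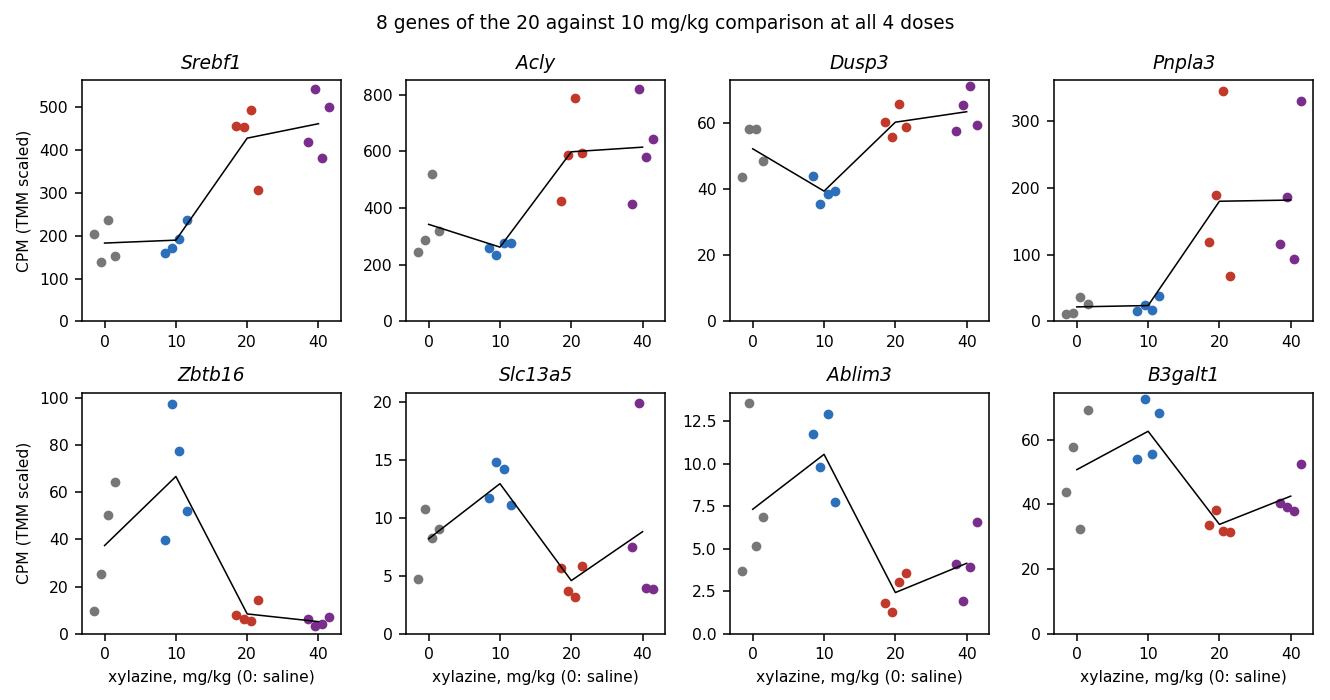
CPM in each of the 16 libraries against dose for 8 genes described above, with 0 for saline and a line through the group means. Srebf1 and Pnpla3 are low at 0 and 10 mg/kg and high at 20 and 40 mg/kg. Zbtb16 is low at 20 and 40 mg/kg, but saline replicate 1 (9.66 CPM) lies below replicate 4 at 20 mg/kg (14.1 CPM). Acly has higher means at 20 and 40 mg/kg, but saline replicate 3 (519 CPM) lies above replicate 1 at 20 mg/kg (423 CPM).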

How the data were processed

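Messenger RNA of 8 rat livers was compared, 4 from the 20 mg/kg and 4 from the 10 mg/kg group. The tools named per the submitters' processing notes are RSEM, Bowtie2 and DESeq2, and the build is mRatBN7.2; their versions and roles are not given in the sources used here. Per the file headers, the authors deposited RSEM-style expected counts, TPM, FPKM and a normalized read count (a signal of unstated scaling) for 17544 genes. The normalized signal and the 16 columns of averages were not used.

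Expected counts were rounded and tested with edgeR 4.0.16 in R 4.3.3, using TMM factors (0.934 to 1.11), filterByExpr (minimum count 10, total 15), the robust two-sided quasi-likelihood F test and Benjamini-Hochberg adjustment over 12391 genes. Between 92.2% and 93.0% of deposited values were whole. The SE is the absolute log2 fold change over the square root of F. DESeq2 1.42.0 and limma 3.58.1 (voom, or log2 of TPM or FPKM plus a pseudocount of 1 or 0.1) were alternatives. The scripts were tested on simulated data. Differences between dose steps were fitted over 16 libraries and 12732 genes. Depth ran from 16236200 to 16942600 counts a library, and the median biological coefficient of variation was 14.3%. The labels do not say that replicate numbers pair livers, nor that the livers are all from separate rats, so p-values measure the spread between these samples.

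The comparison, the 51 gene lists and the 31 genes reported in any case were chosen with earlier results of these data known. As no gene passed, the leading genes are the 12 higher and 12 lower with the smallest p, among those averaging 5 CPM or more at either dose and not carrying placeholder symbols. Each list adds the 2 members with the smallest p. Each step test adds the 5 genes with the smallest p among those averaging 5 CPM or more in any dose group, without placeholder symbols. Genes named beyond this rule (other members of the lists described, Sult4a1, Irs3, Foxa2, Gata4 and Dusp6) were chosen after their values were seen. A few genes that the rule picks are not reported here. Motifs were searched in the 250 bases before RefSeq starts on GRCr8.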

Additional observations from a re-analysis of the deposited data

Results flagged for a closer look

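In 366 groups of 4 libraries, the gap between the highest or lowest library and its nearest neighbour was divided by the group's range, and 32 groups exceeded Dixon's 95% critical value. Chance alone flags about 1 group in 20. The 32 were 24 genes and 8 list averages.

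At 20 mg/kg, replicate 3 was the high library for Thrsp (0.977 of the range), Srebf2 (0.881), Ppargc1a (0.871), RT1-Bb (0.918), Timd4 (0.889), Mki67 (0.864) and the MHC list average (0.878). The same library was low for Dusp1 (0.938), Rpl10a (0.8293), Oit3 (0.913), Scd (0.852), Alb (0.840) and the averages of apolipoproteins (0.836) and stellate cell markers (0.830). Timd4 is a resident macrophage receptor and RT1-Bb an MHC class II gene, and the macrophage list average of this library lay 0.91 log2 units above the 10 mg/kg mean. Replicate 2 at 20 mg/kg was high for Cela1 (0.848) and the erythroid average (0.841), and replicate 1 for Tp53i13 (0.899).

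At 10 mg/kg, replicate 3 was high for Fasn (0.847), Aurkb (0.919), Mcm6 (0.832) and G2e3 (0.853), and low for the averages of the urea cycle (0.860) and of fibrosis and extracellular matrix (0.899). Replicate 1 was high for Lpcat3 (0.910), Tat (0.974), Ifi44 (0.858), Slc4a1 (0.859) and Dbp (0.881). Replicate 2 was high for Gigyf1 (0.832). Replicate 4 was low for Cd163 (0.876) and the LXR average (0.856), and high for the respiratory chain average (0.949).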

How the results depend on the processing

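edgeR's count of 0 genes was also found with no filter on low counts, with at least 5 CPM in 4 libraries, with scaling by total count or by DESeq2's size factors, with limma-voom, with all 16 libraries fitted, with an absolute log2 fold change of at least 1 required, and with limma on log2 TPM or FPKM plus 1. It was 70 with DESeq2, 1 with limma on TPM plus 0.1, 1 with TPM plus 1 and no filter, 6 at an adjusted p under 0.1, and 0 to 14 with 1 library left out. That count was 14 without replicate 4 at 20 mg/kg, 10 without replicate 1 at 10 mg/kg, 1 without replicate 1 at 20 mg/kg and 1 without either replicate 3 or 4 at 10 mg/kg. Leaving out replicate 3 at 20 mg/kg and replicate 1 at 10 mg/kg together, chosen after seeing the data, gave 14, 4 higher and 10 lower. For the step tests DESeq2 gave 3 (lower step) and 1 (upper step), and the other settings gave 0, apart from the block below. The split of unadjusted calls was 615 higher and 172 lower with limma on TPM plus 1, and 431 and 240 with FPKM. The causes were not tested.

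Same-numbered livers did not deviate together (correlations 0.00309, -0.0404, -0.0257 and 0.0733), so the numbers were not taken as pairs. With the replicate block, 0 genes passed for 20 against 10 mg/kg, 0 for the lower step and 1 for the upper.

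Among named genes, 49 values under single settings passed the threshold that the reported fit missed, and 27 changed sign. The log2 fold change of Alb was 0.0105 in the 3 TPM settings and 0.0286 with both libraries out. Cela1 was 0.00388 with TPM plus 1, with or without the filter, and 0.00425 with TPM plus 0.1. Lox was -0.0501 with limma-voom, and with both libraries out Cyp2b1 was 0.13 and Col1a1 -0.13. With 1 library left out, Lox ran from -0.78 to 1.08, Cela1 from -0.26 to 0.0444, Alb from -0.12 to 0.0248, Cyp2b1 from -0.92 to 0.16, Col1a1 from -0.10 to 0.34, Dbp from -0.13 to 0.29, Cyp2c11 from -0.0645 to 0.15, Hspa1b from -0.15 to 1.64, Adra2b from -0.48 to 0.00573 and Cyp8b1 from -0.33 to 0.10.

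Depth was similar in all libraries, and values under 1 CPM rest on few counts. The strand setting of the counting is not given in the sources used here, so overlapping genes, and near-identical ones such as the RT1 family, are uncertain.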
